A study of Mus musculus with 6 samples.

Results

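Mir455 is a microRNA (miRNA) gene that is best known from cartilage, where its host gene encodes a collagen. It was chosen by name together with Mir140, another miRNA known as a cartilage regulator. Mir140 was not analysed here, so 1 of the 1155 rows of the count table is described. The study sequenced small RNA from mouse embryonic fibroblasts, connective tissue cells cultured from embryos, to set cells with Fbxw7 knocked out (Fbxw7 KO, 3 libraries) against wild-type cells (WT, 3 libraries). FBXW7 is the part of an SCF ubiquitin ligase that recognises its substrates, among them Myc and cyclin E, and marks them for degradation. The labels give only these genotypes. They do not say how Fbxw7 was removed, the mouse strain or the embryo stage, nor whether replicates are separate embryos, cultures or only separate libraries. The p-values therefore cover the variation among these 6 libraries, and this may be technical variation.

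A miRNA is cut from a hairpin transcript, and either arm of the hairpin can be loaded into an Argonaute protein, where bases 2 to 8, the seed, pair with target mRNAs. Many miRNAs lie in introns of protein-coding genes and are made together with the host transcript. In mouse cartilage Mir455 and its host Col27a1, which encodes a fibrillar collagen, are active in chondrocytes, and the transcription factor SOX9 is known to drive Mir455 there. Both arms have been reported to act on the mRNA of Epas1, a hypoxia-inducible factor, in mouse chondrocytes.

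The mature sequences are shown because they set which reads the row can hold and which other miRNA has the same seed. They are from RefSeq on build GRCm38.p6, printed 5′ to 3′ with the seed in capitals.
miR-455-5p: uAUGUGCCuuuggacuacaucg
miR-455-3p: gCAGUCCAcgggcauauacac
miR-5129-3p: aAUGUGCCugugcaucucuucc
The Mir455 row spans 82 bases of chromosome 4 (63256851 to 63256932, plus strand, mm10). Within it miR-455-5p takes up bases 17 to 38 and miR-455-3p bases 54 to 74. The counts do not separate the arms, so each Mir455 value below is the sum of both. In GENCODE M21 the row lies in an intron of Col27a1 (63214004 to 63334991, same strand) and overlaps no exon. In the protein-coding transcript Col27a1-201 it is the intron between exons 10 and 11, which is 2318 bases long, and the row ends 127 bases before exon 11. Spliced Col27a1 mRNA therefore does not cover the row, while unspliced transcript would.

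Among annotated miRNAs, nothing was found that would keep reads from being assigned to this row alone. The rest of the genome was not searched for a second match. No other row of the count table overlaps it, and neither mature sequence shares a run of 12 bases with any of the 1005 other hairpins searched. Among 1738 mature mouse miRNAs, 1 other has the seed AUGUGCC of miR-455-5p, namely miR-5129-3p. Beyond the seed, 7 of 14 aligned bases are the same. No other has the seed CAGUCCA of miR-455-3p. Mir5129 lies on chromosome 2 (45023100 to 45023177, minus strand) and held 7 counts over the Fbxw7 KO libraries and 4 over the WT libraries, too few to be tested. The Mir5129 row thus held few counts beside the Mir455 row. The part of miR-455-5p in the Mir455 row is not known, so reads with the AUGUGCC seed were not measured. Shared sequence with other rows was not checked for Mir5129.

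Mir455 was clearly present in all 6 libraries. Fbxw7 KO replicates 1 to 3 held 2153, 1806 and 2272 Mir455 reads, against 3267, 3058 and 2540 in WT replicates 1 to 3. The libraries held 2932439 to 3753353 counts in Fbxw7 KO and 3707576 to 5019700 in WT, and the raw reads follow that difference in depth. As a share of all counts Mir455 made up 0.0686%, 0.0616% and 0.0605% in Fbxw7 KO replicates 1 to 3, against 0.0651%, 0.0669% and 0.0685% in WT replicates 1 to 3. The KO libraries thus include both the highest and the lowest share, and the WT libraries lie between them.

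At this depth counting error was small. The 95% Wilson interval was 0.0657% to 0.0715% in Fbxw7 KO replicate 1, 0.0588% to 0.0645% in replicate 2 and 0.0581% to 0.0631% in replicate 3. The interval of KO replicate 1 does not meet those of the other KO libraries, so the KO libraries spread by more than counting alone gives. The corresponding intervals were 0.0629% to 0.0674%, 0.0646% to 0.0694% and 0.0659% to 0.0712% in WT replicates 1 to 3, which all overlap. Reads are not independent molecules, and these intervals cover counting error only.

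**Figure D1:**
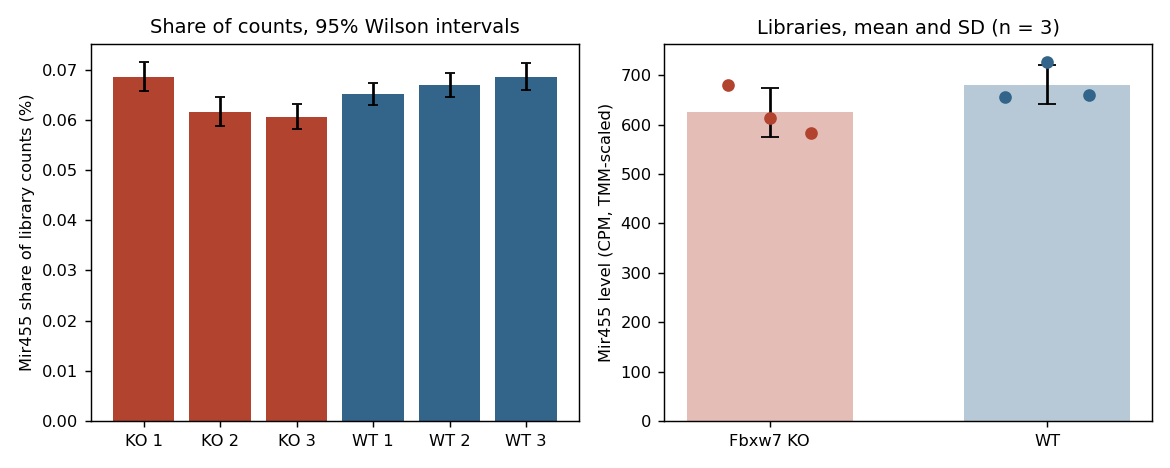
Mir455 in each library. Left, share of library counts in percent with 95% Wilson intervals (bars, Fbxw7 KO 1 to 3 and WT 1 to 3); right, TMM-scaled CPM, with points for libraries and bars and whiskers for mean and SD (n = 3). The Fbxw7 KO points run from 582 to 679 CPM and the WT points from 656 to 727 CPM, so the genotypes overlap.

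Mir455 did not pass the test for a difference between genotypes. In CPM, the counts scaled to a common library total with TMM factors, which assume that most rows do not differ between libraries, it stood at 679, 614 and 582 in Fbxw7 KO replicates 1 to 3, against 656, 727 and 660 in WT replicates 1 to 3. KO replicates 2 and 3 were below every WT library, and KO replicate 1 was above WT replicates 1 and 3. The mean level was 625 ± 49.6 CPM in Fbxw7 KO and 681 ± 39.9 CPM in WT (SD, n = 3 each). In bulk RNA, fewer cells with Mir455 and less Mir455 per cell cannot be told apart. The difference of −56.0 CPM is smaller than the range of the WT libraries (71.4 CPM) and of the KO libraries (97.2 CPM).

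The log2 fold change of Mir455 in Fbxw7 KO over WT was −0.12 (SE 0.121, 95% interval −0.40 to 0.15, edgeR quasi-likelihood test, Benjamini-Hochberg adjusted p = 0.488 over 283 tested miRNAs). On the linear scale this is a ratio of 0.918 with an interval of 0.76 to 1.11. The interval leaves room for a level up to 24.0% lower or 10.9% higher in Fbxw7 KO, so a small difference in either direction was not detectable with these libraries. By the same test 25.4% of all tested miRNAs were called (adjusted p under 0.05), 15.2% as higher and 10.2% as lower in Fbxw7 KO, and in 43.8% the KO and WT libraries did not overlap in CPM. Mir455 belongs to neither class. Leaving out Fbxw7 KO replicate 1 or 2 lowered the share called to 16.8% or 11.9%, and leaving out WT replicate 1 or 2 lowered it to 14.6% or 12.2%. With the Dlk1-Dio3 rows left out of the TMM factors, 30 were higher and 34 lower, in place of 43 and 29.

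The estimate for Mir455 was among the more precise of the series. Its SE of 0.121 compares with a median SE of 0.199 over the tested miRNAs, and 11 of the 283 had a smaller one. Its coefficient of variation, the SD as a percent of the mean, was 7.94% over the Fbxw7 KO libraries and 5.86% over the WT libraries. The medians over all tested miRNAs were 16.7% in Fbxw7 KO and 14.8% in WT, and 65 miRNAs varied less than Mir455 in Fbxw7 KO and 38 in WT. The size of its log2 fold change was also small beside the median size of 0.34, with 54 of the 283 (19.1%) nearer to 0. Relative to the middle of the tested miRNAs, a median log2 fold change of 0.05, Mir455 lay lower by a difference of −0.17.

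Levels of different miRNAs were compared per length, in the FPKM values that the authors deposited (reads per kilobase of row, scaled to library size). Mir455 had 7685 ± 659 FPKM in Fbxw7 KO and 8229 ± 242 FPKM in WT (SD, n = 3 each). It ranked between 65 and 71 among the rows of each library, of which 484 to 532 held counts. Over the 6 libraries 68 of the tested miRNAs had a higher mean FPKM, and the median tested miRNA had 1031 FPKM. Around it, 51 tested miRNAs had a mean FPKM within a factor of 2 of Mir455. Of these 12 were higher in Fbxw7 KO, 10 were lower and 29 were not called, or 43.1% called against 25.4% of all tested miRNAs. Of those 51, 8 had a smaller SE than Mir455 and 7 a smaller size of log2 fold change. Their median SE was 0.146 and the median size of their log2 fold changes was 0.37.

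Mir455 stood among other miRNAs with reported roles in cartilage or chondrocytes. A list of 25 such miRNAs had 23 rows, of which 16 could be tested. The tested members differed widely in level. The recorded command does not switch on counting of reads with several alignments, and shared sequence was not checked for every tested member. Differences in level and order can therefore include differences in how uniquely reads align. Mir455 was the seventh in FPKM, below Mir495, at 12137 ± 2520 FPKM in Fbxw7 KO and 21412 ± 1233 FPKM in WT, and above Mir34a, at 5763 ± 215 FPKM in Fbxw7 KO and 4046 ± 760 FPKM in WT (SD, n = 3 each). Over the 6 libraries Mir455 ran from 7211 to 8497 FPKM, Mir495 from 9238 to 22763 FPKM and Mir34a from 3436 to 6004 FPKM, so Mir455 overlapped neither neighbour. The next in order, Mir320, ran from 3031 to 5663 FPKM and overlapped Mir34a. Mir27b was the most abundant, at 644384 ± 180615 FPKM in Fbxw7 KO and 652219 ± 36677 FPKM in WT, with the limit that Mir27b shares a run of 20 bases with Mir27a.

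**Figure D2:**
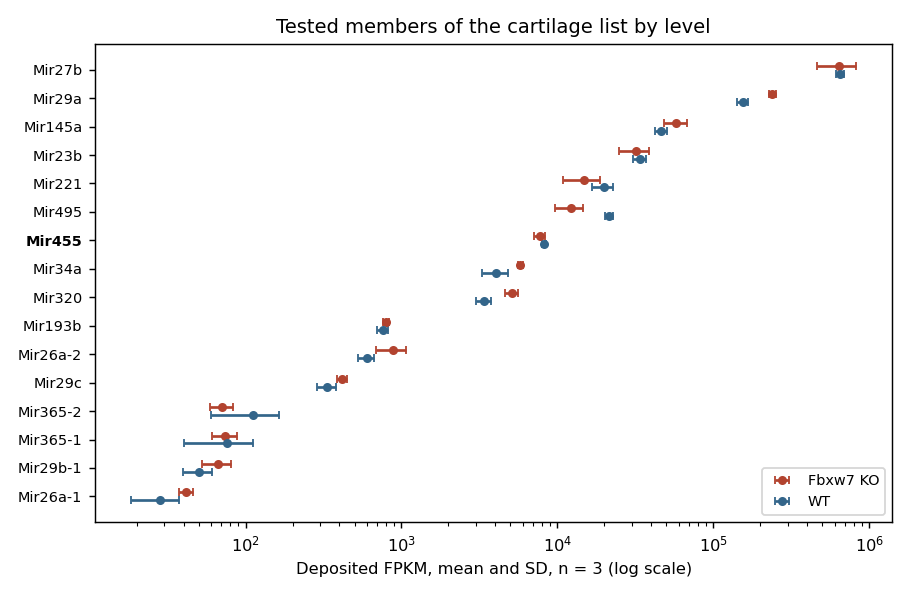
Level of the 16 tested members of the cartilage list, ordered by mean FPKM. The horizontal axis is the deposited FPKM on a log scale, with points for the mean and whiskers for the SD (n = 3) of Fbxw7 KO (upper point) and WT (lower point); Mir455, in bold, stands at 7685 FPKM in Fbxw7 KO and 8229 FPKM in WT, between Mir495 and Mir34a.

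Of the 16 tested members of the cartilage list, 3 were higher in Fbxw7 KO, 1 was lower and 12, Mir455 among them, were not called. This is 25.0% of the list, close to the 25.4% of all tested miRNAs. The median log2 fold change of the list was 0.17, against 0.05 over all tested miRNAs. Without Fbxw7 KO replicate 2 the list had 1 called member, and without WT replicate 2 it had 2. Mir320, which has been reported to repress the matrix protease Mmp13 in chondrocytes, was higher at 414 ± 37.7 CPM in Fbxw7 KO and 277 ± 26.4 CPM in WT (SD, n = 3 each; log2 fold change 0.58, SE 0.14, edgeR adjusted p = 0.0178). That call ended without Fbxw7 KO replicate 2 (adjusted p = 0.0622) and without WT replicate 2 (adjusted p = 0.0736). Whether the Mir320 row shares sequence with another was not checked.

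The other called members had log2 fold changes of 0.62 for Mir29a, a repressor of collagen mRNAs, 0.49 for Mir34a, a p53 target, and −0.84 for Mir495, a miRNA of the Dlk1-Dio3 imprinted cluster reported to act on Sox9 (edgeR adjusted p = 0.00789, 0.0365 and 0.00942). The Mir29a call ended without Fbxw7 KO replicate 2 (adjusted p = 0.0512). The Mir34a call ended in 6 of 15 alternatives (adjusted p over all 15 from 0.0243 to 0.151). Mir675, processed from H19 and reported to raise Col2a1 in chondrocytes, was picked after its values were seen. It held 2 counts over the Fbxw7 KO libraries and 1 over the WT libraries. Of the list, 3 rows stood at 0 in every library, namely Mir22, Mir222 and Mir337, which were also picked after their values were seen. Each of them overlaps another row of the table, and reads over both rows are left out in counting by default, so a 0 there is no measure of absence.

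**Figure D3:**
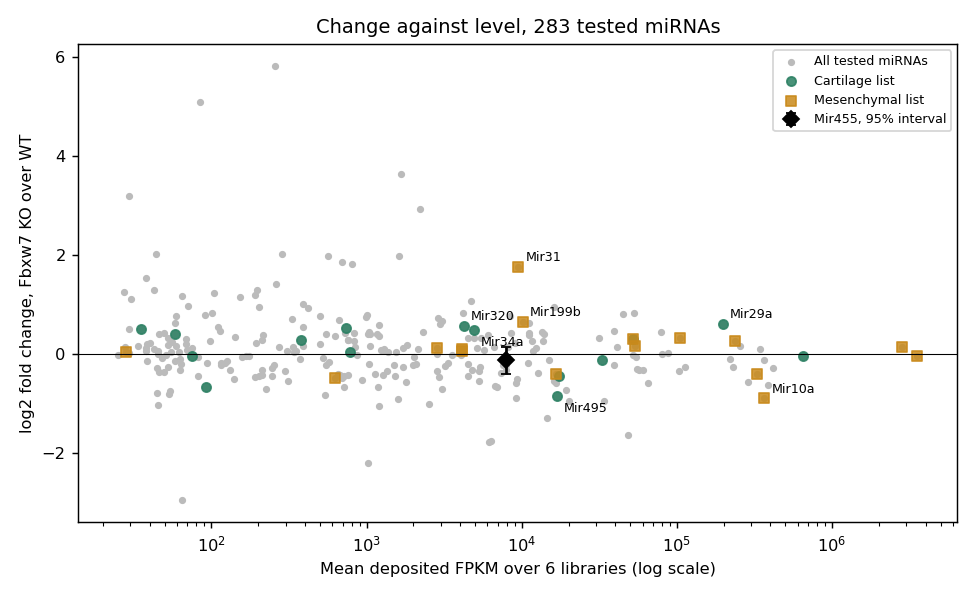
Log2 fold change (Fbxw7 KO over WT) against mean FPKM over the 6 libraries on a log scale, for all 283 tested miRNAs (grey), the cartilage list (circles), the mesenchymal list (squares) and Mir455 (diamond, with its 95% interval of −0.40 to 0.15). Mir145a, in both lists, is drawn as a square. Called list members are named, and the interval of Mir455 includes 0.

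Fibroblast and mesenchymal miRNAs held most of the counts. A list of 21 had 18 rows, which together held 57.5% to 61.3% of counts in the Fbxw7 KO libraries and 56.8% to 58.2% in the WT libraries. Mir21a and Mir143, named after their values were seen, made up most of this, with 48.4% to 51.7% of counts in Fbxw7 KO and 45.8% to 46.5% in WT, so the share is largely that of 2 rows. Of its 16 tested members, 2 were higher (Mir31 and Mir199b), 1 was lower (Mir10a) and 13 were not called, or 18.8% called against 25.4% of all tested miRNAs, with a median log2 fold change of 0.12. The log2 fold changes of the called members were 1.77 for Mir31, 0.65 for Mir199b and −0.89 for Mir10a (edgeR adjusted p = 0.000666, 0.0203 and 0.00179). Mir199b shares a run of 20 bases with both Mir199a hairpins and its count is uncertain. Its call also ended without Fbxw7 KO replicate 2 (adjusted p = 0.0586) and without WT replicate 2 (adjusted p = 0.0736). The list had 5 called members without Fbxw7 KO replicate 3, and also 5 when the TMM factors were computed with the Dlk1-Dio3 rows left out.

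Lists for other cell types held little of the counts. Muscle miRNAs (8 rows, 5 at 0) held 0.0218% to 0.0409% in Fbxw7 KO and 0.0141% to 0.023% in WT, nearly all of it Mir206. Neuronal miRNAs (12 rows, 4 at 0), led by Mir128-1, held 0.0151% to 0.0196% in Fbxw7 KO and 0.013% to 0.0177% in WT. Epithelial miRNAs (7 rows, none at 0), led by Mir203, held 0.00168% to 0.00618% in Fbxw7 KO and 0.00211% to 0.00262% in WT. Blood cell miRNAs (7 rows, 3 at 0), led by Mir451a, held 7.99e-05% to 0.000307% in Fbxw7 KO and 0.000216% to 0.000438% in WT. The recorded counting command does not switch on reads with several alignments, and shared sequence was not checked for the rows of these lists. A 0 or a low share here is therefore no measure of absence. The part of such cells in the Mir455 values was not tested.

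Mir455 has no close neighbour among the measured miRNAs of its chromosome. Of the 53 rows on chromosome 4, 30 held counts and 12 were tested, of which 2 were higher and 1 was lower in Fbxw7 KO. That is 25.0% called, close to the 25.4% over all chromosomes. The nearest row with counts before it, Mir3095, lies 4.82 Mb away on the minus strand and held 10, 9 and 12 counts in Fbxw7 KO replicates 1 to 3, against 16, 11 and 9 in WT replicates 1 to 3. Mir3095 was not called. The nearest row after it, Mir491, lies 24.9 Mb away and held 5, 3 and 3 counts in Fbxw7 KO, against 8, 6 and 4 in WT, which is too low to test. Mir455 was thus the only well-counted row over this stretch of the chromosome.

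The miRNAs with the pattern most like that of Mir455 over the 6 libraries were Mir679, Mir381, Mir434, Mir27a and Mir132. Likeness was taken as Pearson's r of log2 CPM (prior count 2), and is given as a description, since all 6 points share libraries and scaling. The values of r were 0.962 for Mir679, 0.904 for Mir381, 0.898 for Mir434, 0.889 for Mir27a and 0.889 for Mir132. Mir679, Mir381 and Mir434 lie on chromosome 12 in Dlk1-Dio3, an imprinted region that is transcribed into miRNAs from the maternal copy. Mir27a lies on chromosome 8 and shares a run of 20 bases with Mir27b, so its count is uncertain. Mir132, a miRNA induced by CREB in neurons, lies on chromosome 11. Over all 282 tested miRNAs compared, the median r with Mir455 was −0.07. An r above 0.8 was found for 24, and 15 of these 24 (of 41 tested in the cluster) lie in Dlk1-Dio3.

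These 5 were picked for the highest r with Mir455 among 282 tested miRNAs, so a shared pattern follows from that choice. The shared pattern was a low value in Fbxw7 KO replicate 3 and a high one in WT replicate 2, in TMM-scaled CPM. Fbxw7 KO replicate 3 had the highest TMM factor (1.040) and WT replicate 2 the lowest (0.921). This scaling lowers every row in the former and raises it in the latter. WT replicate 3 had a factor of 1.038, close to the highest. Mir455 stood at 9.37 in log2 CPM there, against 9.19 in Fbxw7 KO replicate 3. As an unscaled share, Mir455 was lowest in Fbxw7 KO replicate 3 (0.0605%). WT replicate 2 (0.0669%) was below Fbxw7 KO replicate 1 (0.0686%) and WT replicate 3 (0.0685%). The part of the scaling in the pattern was not tested. In log2 CPM, Mir455 stood at 9.41, 9.26 and 9.19 in Fbxw7 KO replicates 1 to 3 and at 9.36, 9.51 and 9.37 in WT replicates 1 to 3. Mir679 stood at 6.37, 6.20 and 5.88 in Fbxw7 KO replicates 1 to 3 and at 6.26, 6.54 and 6.26 in WT replicates 1 to 3. Mir455 varied least among the 6, over a range of 0.32 on the log2 scale, against 0.66 for Mir679, 1.05 for Mir381, 1.26 for Mir434, 0.48 for Mir27a and 1.07 for Mir132. Like Mir455, the other 5 were not called between genotypes, with log2 fold changes from −0.56 for Mir434 to −0.11 for Mir27a. Mir434 and Mir132, at adjusted p = 0.0738 and 0.0701 in edgeR, were called in 4 and 6 of 15 alternatives (adjusted p over all 15 from 0.0116 to 0.235 for Mir434 and from 0.0278 to 0.259 for Mir132), and Mir27a turned to 0.0088 without Fbxw7 KO replicate 3.

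**Figure D4:**
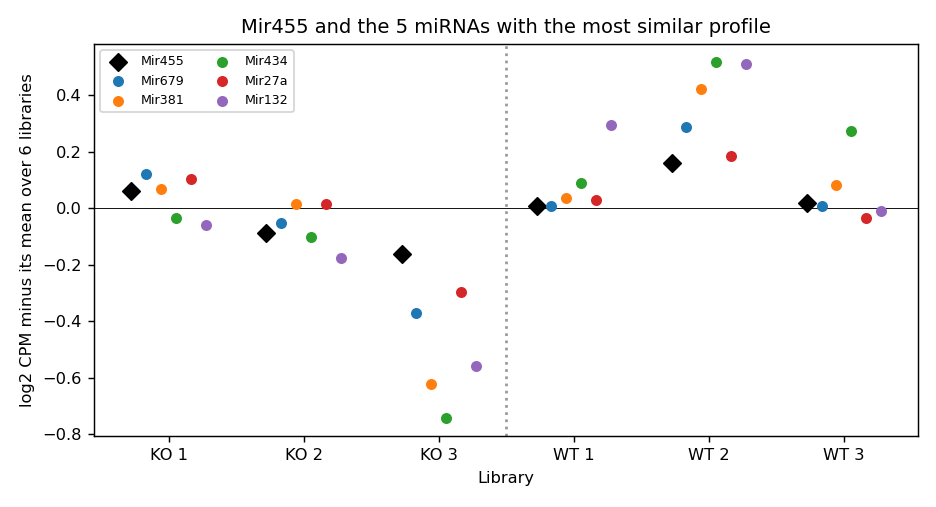
Log2 CPM minus its mean over the 6 libraries for Mir455 (diamonds) and the 5 miRNAs with the highest Pearson's r with it, in Fbxw7 KO 1 to 3 and WT 1 to 3 (dotted line between genotypes). All 6 are lowest in KO 3 and highest in WT 2; the points of Mir455 span 0.32 and those of Mir434 span 1.26.

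No alternative brought Mir455 past the threshold or turned its sign. Over 15 alternatives its log2 fold change ran from −0.25 to −0.06 and its adjusted p from 0.161 to 0.821. The value farthest from 0 came from TMM factors computed with the Dlk1-Dio3 rows left out (adjusted p = 0.161). Under this scaling the median over all tested miRNAs was −0.07 in place of 0.05, and the difference between Mir455 and that median was −0.18. With library totals alone Mir455 stood at −0.07 and its difference from the median was also −0.18. Over all 15 alternatives that difference ran from −0.24 without Fbxw7 KO replicate 1 to −0.12 without WT replicate 2. Leaving out WT replicate 2, its highest WT library in TMM-scaled CPM, gave −0.06 (edgeR adjusted p = 0.821). Leaving out Fbxw7 KO replicate 3, its lowest KO library, also gave −0.06 (edgeR adjusted p = 0.744).

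**Figure D5:**
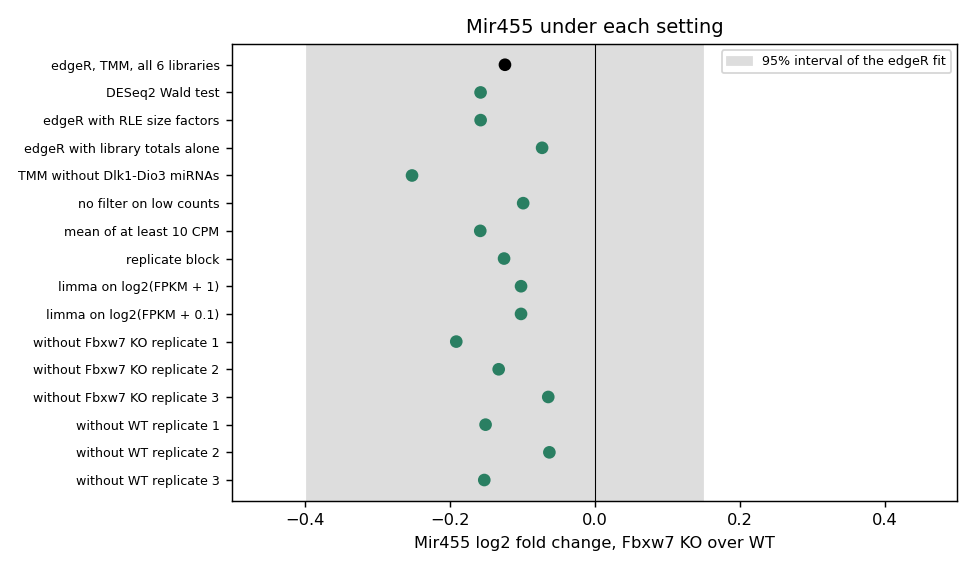
Log2 fold change of Mir455 (Fbxw7 KO over WT, horizontal axis) in the edgeR fit (black) and under 15 alternatives (green), with the 95% interval of the edgeR fit shaded (−0.40 to 0.15). All points lie between −0.25 and −0.06, inside the interval.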

How the data were processed

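Small RNA was sequenced from 3 Fbxw7 KO and 3 WT libraries of mouse embryonic fibroblasts. The deposited count table gives raw reads for each miRNA gene, made with featureCounts 1.6.4, grouped by gene name with strand ignored, per the file headers. The recorded command does not switch on counting of reads with several alignments or over several rows. The submitters' processing notes name build mm10, TopHat2 2.1.1, SAMtools 1.5, Cufflinks 2.2.1 and deepTools. Read trimming is not given in the sources used here. The FPKM values the authors deposited equal, in all 1155 rows, the count per kilobase and per TMM-scaled library size (largest relative difference 8.5e-15).

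The count test was edgeR 4.0.16 (R 4.3.3), using robust glmQLFit, glmQLFTest and TMM factors (filterByExpr with a minimum count of 10 and a minimum total of 15, genotype as the only term), 2-sided, which left 283 rows. The adjusted p is a Benjamini-Hochberg value with a threshold of 0.05, and the SE comes from the F statistic. The test was also run on simulated counts, drawn independently with dispersions fitted to these data. The outcome of that run is not used as support here. Replicates differed by far more than sampling noise in every pair, and none was merged. The alternatives were DESeq2 1.42.0, limma 3.58.1 on log2(FPKM + 1) and log2(FPKM + 0.1), other scalings and filters, a replicate block and leaving out each library. A ratio of Mir455 to Mir140 and the tests of Mir140 were planned and not run, since Mir140 was not analysed here.

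Named are Mir455, its 5 most similar miRNAs, called members of the 2 lists, its seed relative, its nearest counted neighbours and the leading row of each other list. The neighbours of Mir455 in the order of levels, and Mir27b, were added after their values were seen. Members and lists were chosen with earlier results of these data known.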

Additional observations from a re-analysis of the deposited data

How the results depend on the processing

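Mir455 kept its negative sign and its side of the threshold in all 15 alternatives, and leaving out 1 library at a time moved its log2 fold change between −0.19 and −0.06. The number of called miRNAs, 72, ran from 34 (without Fbxw7 KO replicate 2) to 78 over the leave-outs, with 42 without WT replicate 1 and 35 without WT replicate 2. Called members of the cartilage list, 4, ran from 1 to 5 over the leave-outs. Called members of the mesenchymal list, 3, ran from 2 to 5, and were 5 with TMM factors from outside the Dlk1-Dio3 cluster. That scaling gave 30 higher and 34 lower calls in place of 43 and 29, and a median over the tested miRNAs of −0.07 in place of 0.05. Mir27a reversed to 0.0088 without Fbxw7 KO replicate 3, and ran from −0.20 to 0.0088 over the leave-outs. In none of these was the cause tested. Deviations of same-numbered KO and WT libraries had correlations of −0.0566, 0.136 and 0.157, against −0.182 to 0.152 for different numbers. With 3 libraries per genotype these values cannot decide whether the numbers pair the samples. With the replicate block 76 miRNAs were called and Mir455 stood at −0.13 (adjusted p = 0.512). With 1806 to 3267 reads of Mir455 per library, counting error was smaller than the spread between the Fbxw7 KO libraries.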
